A study of Mus musculus with 2 samples.

Results

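Imprinted genes are transcribed mainly from the maternal or the paternal copy, and 41 of them were followed here in the pancreas of adult mice. The members were a set of well known imprinted mouse genes chosen by name, and a probe set was taken as theirs when its platform gene symbols included the member. This gave 106 of the 45101 probe sets on the array, 8 of them annotated to several genes, for 37 of the 41 members. Rtl1, Dio3, Zrsr1 and Slc22a3 had no probe set under this annotation and were not analysed here. RNA came from the pancreas of male offspring, aged 10 weeks, of C57BL/6J mothers, a common inbred strain. The labels do not name the fathers' strain. The control group had mothers on a control diet in pregnancy, and the methionine-deficient group had mothers on a methionine-deficient diet in pregnancy. Offspring of both groups were weaned at 3 weeks onto control diet and were not themselves treated after birth. RNA of each group was pooled and read on 1 array, so no spread between mice or arrays exists, no p-value is given and every value below is a single measurement. The labels do not say how many mice or litters entered a pool, and the arrays measured total transcript without telling the parental copies apart.

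Imprinting rests on DNA methylation that is laid down differently in egg and sperm at control regions and is copied at each cell division. The methyl groups come from S-adenosylmethionine, which is made from dietary methionine. Many imprinted genes act in fetal and placental growth, where paternally expressed genes such as Igf2 tend to promote growth and maternally expressed genes such as Igf2r, Grb10 and Cdkn1c tend to restrain it, and several fall strongly in level after birth.

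Values are the intensities deposited by the authors, in the linear units of the array. A difference is the log2(intensity + 1) of the methionine-deficient pool minus that of the control pool, a scale that understates the change of dim genes. A gene was read through its brightest probe set with 1 gene symbol and kept when its mean level was at or above an intensity of 150.3, the median over probe sets other than array controls. As an error, each difference has a probe-set spread, a robust SD of differences among a gene's several probe sets, taken at a similar level. This covers noise between probes within these 2 arrays and not that between animals. It was 0.77, 0.60, 0.46, 0.31 and 0.18 from the dimmest to the brightest of 5 level bins, and 1.86 below the filter. Both arrays had a trimmed mean of 500.003, and the signal at the 3′ end of Actb over that at its 5′ end, which rises as RNA degrades, was 1.46 in the control and 1.76 in the methionine-deficient pool. The part of RNA quality in the differences below was not tested.

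Most imprinted genes had close intensities in both pools, and 1 of the 23 members past the level filter differed by at least 2-fold. That gene was Igf2, higher in the methionine-deficient pool. Over all 11848 genes past the filter, 6.68% differed by at least 2-fold, 3.87% upward and 2.8% downward. Of the 23 members, 8 were higher and 15 lower, and their median difference was -0.13 against -7.7e-06 over all genes. The estimated probe noise of the members' median was 0.13. With each array centred on its median, the members' median was -0.18 and that of all genes -0.05. With quantile scaling and loess the members' median was -0.15 and -0.16, and that of all genes -0.0046 and -0.0035. A difference under 1.5-fold was seen for 91.3% of the members and for 80.6% of all genes. Leaving Igf2 aside, the other 22 members lay between -0.87 and 0.55. The probe-set spread was exceeded by 7 of the 23 members, or 30.4%, and by 33.9% of all genes, so the members' share was near that background.

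**Figure D1:**
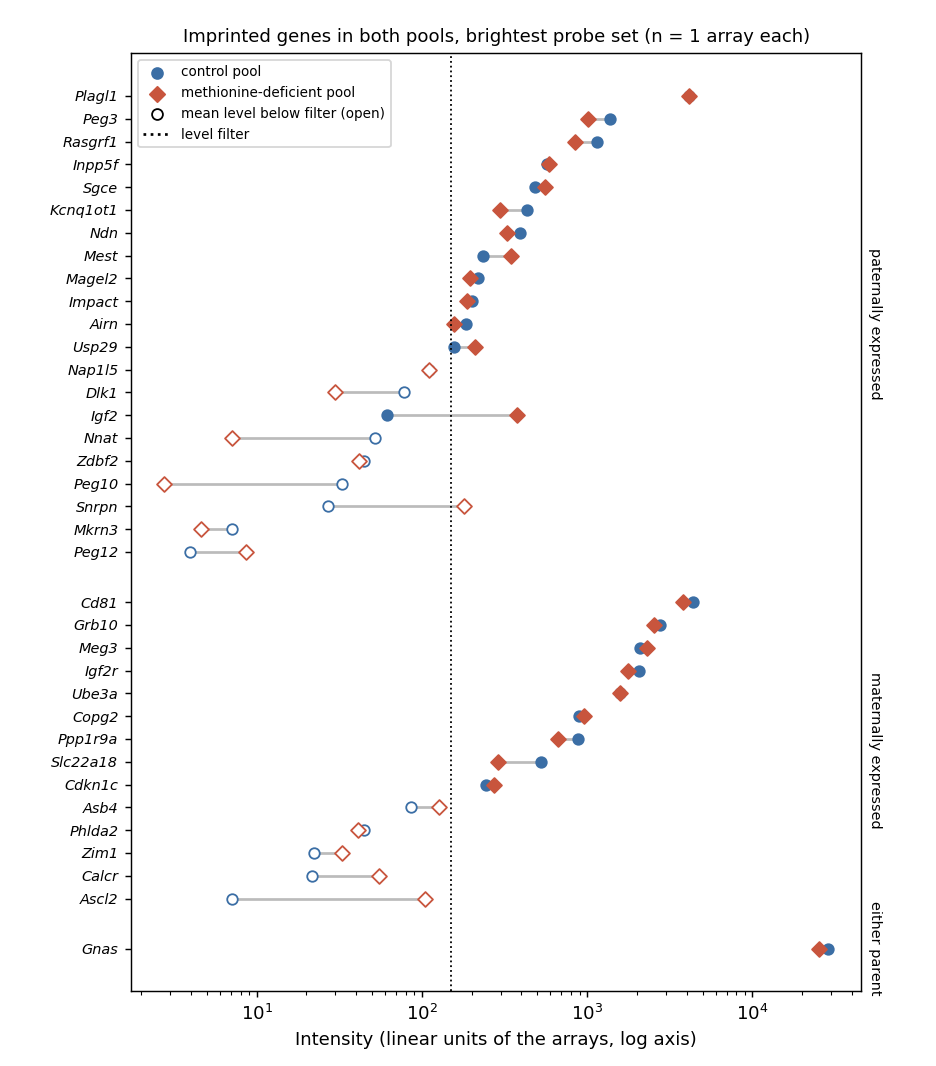
Intensity of each imprinted gene in the control pool (circles) and the methionine-deficient pool (diamonds) on a log axis, 1 array each, by parental class and control intensity, without H19. Open symbols mark genes whose mean level lay under the level filter (dotted line at 150.3), and Igf2 has the widest gap among filled symbols, from 61.7 to 378.

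Among growth factors, receptors and signalling genes, Igf2 differed most. Igf2 encodes the insulin-like growth factor that drives fetal growth and is transcribed from the paternal copy. Its brighter probe set read 61.7 in the control and 378 in the methionine-deficient pool, which is 6.05-fold higher on the log2(intensity + 1) scale (log2 difference 2.60, probe-set spread 0.77). Its other probe set was below the filter in both pools, at 24.4 and 44.4 (0.84, spread 1.86). Both probe sets were thus higher, but the brighter passed the filter narrowly, at percentile 50.5 of all probe sets, and only through its level in the methionine-deficient pool. A gene that passes in this way has to differ, so its call is a description. In the dimmest level bin, where it lies, 23.5% of genes differed by 2-fold or more, 14.2% being higher and 9.28% lower. Whether the control intensity of 61.7 stands above the background of its array is not known from these values.

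H19 lies next to Igf2, shares enhancers with it and is a maternally expressed long noncoding RNA that is abundant before birth. It was read through a single probe set that is annotated to H19 and to Mir675, the microRNA gene inside it. That probe set had 64.8 in the control and 275 in the methionine-deficient pool (log2 difference 2.07, spread 1.86), with a mean level below the filter. Of all probe sets below the filter, 29.4% were higher by 2-fold or more and 26.9% lower, so no fold is read for H19.

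The mature microRNAs encoded within H19 (miR-675) and within Igf2 (miR-483) are shown because each is cut from the transcript of one of these genes. The array's probe sets read the long transcripts and not the mature forms. Sequences are those of RefSeq on GRCm38.p6, 5′ to 3′, with the seed (bases 2 to 8) in capitals.
mmu-miR-675-5p: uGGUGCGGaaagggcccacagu
mmu-miR-675-3p: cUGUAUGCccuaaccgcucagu
mmu-miR-483-5p: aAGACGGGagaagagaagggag
mmu-miR-483-3p: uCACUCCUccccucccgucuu
No seed was shared among these 4 microRNAs.

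Igf2r, the maternally expressed receptor that carries IGF2 to the lysosome, had no single direction. Its brightest probe set read 2057 in the control and 1760 in the methionine-deficient pool (log2 difference -0.22, spread 0.18). The second read 1233 and 1465 (0.25), so the pair lay on opposite sides of 0. Grb10 encodes an adaptor that dampens insulin and IGF receptor signalling. Its brightest probe set read 2779 and 2540 (-0.13, spread 0.18), and its dimmer ones read 301 and 116 (-1.37) and 227 and 143 (-0.66). All 3 of its probe sets were thus lower in the methionine-deficient pool, by amounts that differed by 1.24 between the extremes.

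Rasgrf1, a paternally expressed exchange factor for Ras, was lower in both probe sets past the filter. The brighter read 1144 in the control and 845 in the methionine-deficient pool (log2 difference -0.44, spread 0.31). The other read 295 and 76.8 (-1.93), and a probe set near the bottom of the range, at 10.1 and 15.6, was higher by 0.58. Together with Grb10 it was 1 of 2 members, of 11 read past the filter by 2 probe sets or more, whose probe sets there all lay on 1 side. The second Rasgrf1 probe set and the dimmer ones of Grb10 passed the filter only through the control pool. A probe set that passes in this way has to be lower, so this agreement is a description.

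Gnas, which makes the stimulatory G protein subunit and further transcripts from either parental copy, had 28701 in the control and 25407 in the methionine-deficient pool (log2 difference -0.18, spread 0.18). Its other 4 probe sets lay below the filter and went both ways, 3 of them being higher and 1 lower. The bright probe set can bind several Gnas transcripts, so a shift between them would not be seen. Cdkn1c, the maternally expressed cell cycle inhibitor p57, had 244 and 274 (0.16, spread 0.60). That difference is well within the probe-set spread.

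Dlk1, a paternally expressed inhibitor of adipocyte differentiation, had 78.3 and 29.8 in its brighter probe set and 51.5 and 44.7 in the other, both below the filter. Calcr, the calcitonin receptor, had 21.7 and 54.6, also below it. No fold is read from these values, since 56.2% of all probe sets below the filter differed by at least 2-fold.

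**Figure D2:**
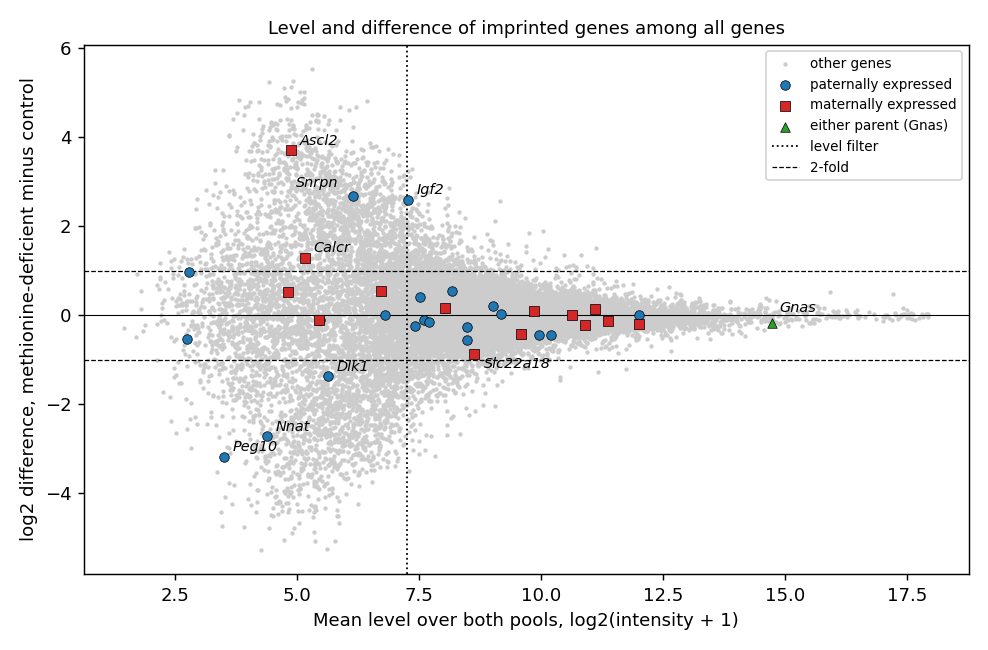
Mean level over both pools (x axis, log2 intensity) against the log2 difference (y axis) for other genes (grey) and for imprinted genes by parental class, with the level filter (dotted) and 2-fold (dashed). Differences widen toward low levels for all genes, and Igf2 at 2.60 lies just right of the filter while members at higher levels lie near 0.

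Of the long noncoding RNAs, Meg3, Kcnq1ot1 and Airn had several probe sets each, with differences on both sides of 0. Meg3, the maternally expressed RNA of the Dlk1 cluster, was read by 11 probe sets, of which 8 lay past the filter. Its brightest read 2086 in the control and 2294 in the methionine-deficient pool (log2 difference 0.14, spread 0.18), and the next read 1099 and 1025 (-0.10). Over the 8, 5 were higher and 3 lower, between -0.75 and 0.43. The lowest (240 and 142) passed the filter only through the control pool, so it had to be lower. The transcripts Rian and Mirg lie beyond Meg3 in the same cluster and were also taken from a list of imprinted genes. Rian had 445 and 234 (-0.92, spread 0.60), and Mirg had 138 and 232 (0.75, spread 0.77). Mirg passed the filter only through the methionine-deficient pool, so it had to be higher, and no contrast with Rian is read.

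Kcnq1ot1, the paternally expressed RNA that silences its neighbours in cis, had 433 and 295 in its brightest probe set (log2 difference -0.55, spread 0.60). The others past the filter read 203 and 355 (0.80) and 64.5 and 395 (2.60), the last passing only through the methionine-deficient pool. Of its 6 probe sets 5 were higher and the brightest was lower, so the direction depended on which was read. Airn, the paternally expressed RNA antisense to Igf2r, had 186 and 156 in its brightest probe set (-0.25, spread 0.77) and 127 and 220 in the next (0.79). Another, annotated to both Airn and Igf2r and below the filter, had 51.4 and 180. Here too 5 of 6 probe sets were higher and the brightest was lower. Of the higher Airn probe sets, that at 127 and 220 passed only through the methionine-deficient pool and had to be higher. The rest of them, and the higher Kcnq1ot1 ones not listed here, lay below the filter. There 56.2% of all probe sets differed by at least 2-fold, so both counts are descriptions.

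**Figure D3:**
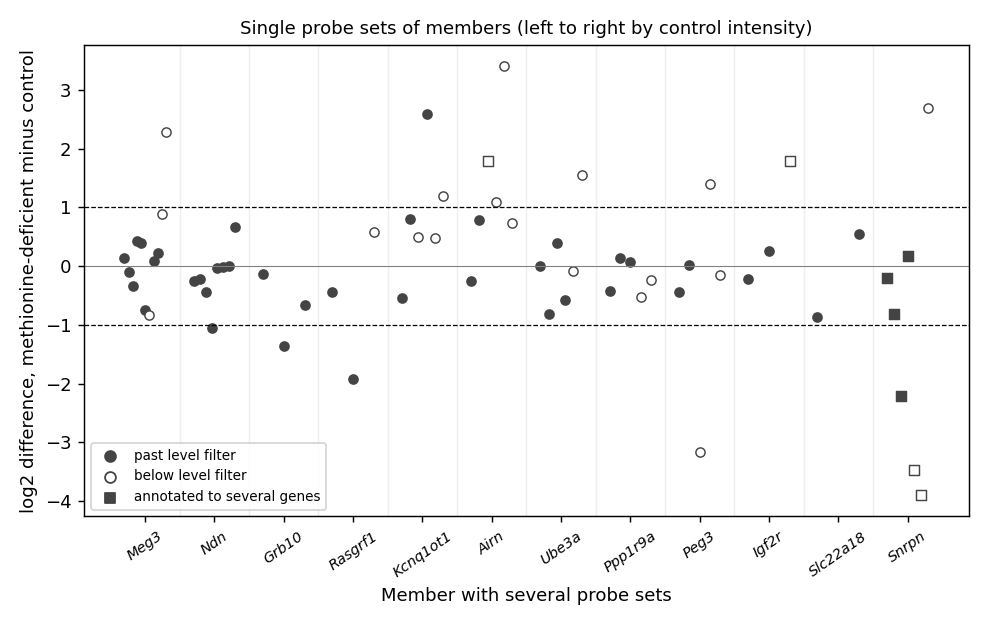
The log2 difference (y axis) of every probe set of 12 imprinted genes (x axis), each gene's probe sets ordered by control intensity with the brightest at the left, and 2-fold as dashed lines. Filled symbols lie past the level filter, open ones below, and squares mark probe sets annotated to several genes; Grb10 lies wholly below 0, whereas Meg3 and Kcnq1ot1 lie on both sides.

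Among nuclear and RNA-binding proteins, all 4 with a value past the filter were at or below 0. Plagl1, a paternally expressed zinc finger regulator of other imprinted genes, had nearly equal intensities of 4116 and 4114. Its sign turned with quantile and loess scaling. Peg3, a paternally expressed zinc finger protein, had 1369 in the control and 1007 in the methionine-deficient pool (log2 difference -0.44, spread 0.31), but its second probe set had 529 and 538. Zim1, the maternally expressed gene beside Peg3, had 22.3 and 32.7, below the filter, and Usp29, a ubiquitin protease of the same cluster, had 157 and 210 (0.42, spread 0.77).

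Ndn, which encodes the growth-restraining protein necdin and is missing from the paternal copy in Prader-Willi syndrome, was read by 8 probe sets that mostly leaned downward. Its brightest read 391 in the control and 326 in the methionine-deficient pool (log2 difference -0.26, spread 0.60). All 8 lay past the filter and 7 were lower, 3 of these by less than 0.04, with the lowest at 348 and 167 (-1.06) and the single higher one at 171 and 271 (0.67). Magel2, a neighbouring paternally expressed member of the same protein family, had 219 and 197 (-0.15, spread 0.77).

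Snrpn encodes a spliceosome protein and shares its transcript with Snurf, so 6 of its 7 probe sets were annotated to both genes. The brightest of these read 4114 in the control and 3577 in the methionine-deficient pool (log2 difference -0.20, spread 0.18). The next read 2076 and 1180 (-0.81), another 1901 and 411 (-2.21) and the last past the filter 1052 and 1189 (0.18). They therefore spanned 2.38 on the log2 scale for what is annotated as the same transcript. The -2.21 and the -0.20 come from probe sets with the same source record in the annotation. The only probe set with Snrpn alone had 27.0 and 180, below the filter. Ascl2, a transcription factor imprinted in placenta, had 7.10 and 105 in one probe set and 111 and 2.47 in another, both below the filter and in opposite directions.

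Among membrane and transport genes, Slc22a18, a maternally expressed organic cation transporter, had 527 in the control and 289 in the methionine-deficient pool (log2 difference -0.87, spread 0.46). Its second probe set went the other way at 245 and 358 (0.54). Cd81, a tetraspanin imprinted in placenta, had 4353 and 3813 (-0.19, spread 0.18). Sgce, the paternally expressed epsilon-sarcoglycan, had 481 and 554 (0.20, spread 0.46), and Copg2, a subunit of the coat of Golgi vesicles, had 893 and 954 (0.10, spread 0.31). Nnat, a small membrane protein known from beta cells and brain, had 52.2 and 7.13, below the filter.

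Among enzymes and ubiquitin pathway genes, Mest, a paternally expressed hydrolase-like protein linked to fat cell size, had 236 in the control and 347 in the methionine-deficient pool (log2 difference 0.55, spread 0.60). Ube3a, the ubiquitin ligase of Angelman syndrome that is imprinted in neurons, had 1587 and 1586 in its brightest probe set, with a sign that turned under quantile and loess scaling. Its other 3 probe sets past the filter gave -0.81, 0.39 and -0.58. Inpp5f, a phosphoinositide phosphatase with a paternally expressed transcript in brain, had 574 and 585 (0.03, spread 0.46), a sign that turned when each array was centred on its median.

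Of the remaining members, Ppp1r9a, a regulatory subunit of a phosphatase that binds actin, had 887 and 662 (log2 difference -0.42, spread 0.31), against 0.13 and 0.07 in its other probe sets past the filter. Impact, a translational regulator that inhibits the kinase GCN2, had 201 and 186 (-0.10, spread 0.77). The other members below the filter were Peg10 at 33.0 and 2.76, Phlda2 at 44.5 and 41.2, Zdbf2 at 44.7 and 41.8, Nap1l5 at 110.2 and 110.1, Peg12 at 3.93 and 8.61, Mkrn3 at 7.07 and 4.60 and Asb4 at 85.7 and 126. Counting those named above, 13 members with a probe set of their own lay below the filter, with control intensities from 3.93 to 110.2, 6 of them higher and 7 lower.

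Paternally and maternally expressed members had overlapping ranges and similar medians. The 13 paternally expressed members past the filter split into 5 higher and 8 lower, around a median of -0.10 with quartiles of -0.26 and 0.20. The 9 maternally expressed members split into 3 higher and 6 lower, around a median of -0.13 with quartiles of -0.22 and 0.10. Of these, Cd81, Ube3a, Ppp1r9a and Copg2 are imprinted mainly in placenta or brain, so their class need not hold in pancreas. The paternal median was 0.03 above the maternal one, beside an estimated probe noise of 0.25 for that difference. Its sign turned with quantile scaling (-0.02) and loess (-0.04), and also when Grb10, which is paternally expressed in brain, was counted as paternal (-0.02). Without members imprinted mainly in placenta or brain, 12 paternally and 5 maternally expressed members remained, each class with a median of -0.13 (contrast 0.0005). By means, which Igf2 pulls upward, the full classes stood at 0.12 and -0.16. Calls at 2-fold were too few to set the classes against each other by gene.

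**Figure D4:**
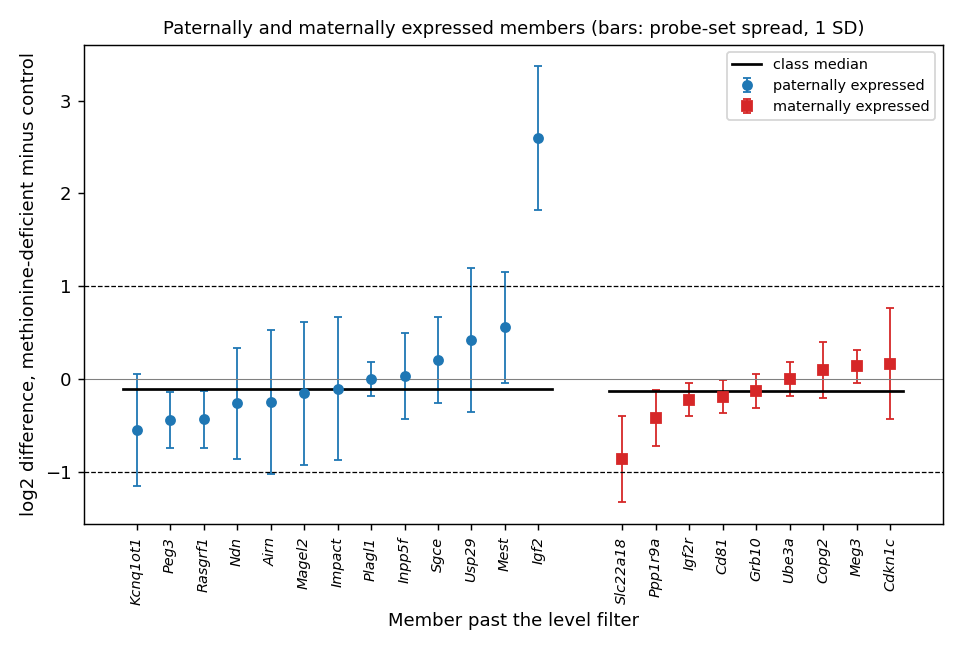
The log2 difference (y axis) of the 13 paternally expressed (circles) and 9 maternally expressed (squares) members past the level filter, with the probe-set spread as bars (1 SD), class medians as black lines and 2-fold as dashed lines. The medians of -0.10 and -0.13 nearly coincide, and Igf2 at 2.60 stands alone above 1.

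Within clusters, neighbours of opposite parental expression were set side by side. Among them, Cd81, Copg2, Ppp1r9a and Ube3a are imprinted mainly in placenta or brain, so their parental class need not hold in pancreas. In the Kcnq1ot1 cluster the paternally expressed RNA was at -0.55 and the maternally expressed Cdkn1c, Slc22a18 and Cd81 at 0.16, -0.87 and -0.19. In the Igf2r cluster Airn was at -0.25 and Igf2r at -0.22. In the Mest cluster Mest was at 0.55 and the oppositely imprinted Copg2 at 0.10. In the Peg10 cluster the paternally expressed Sgce was at 0.20 and the maternally expressed Ppp1r9a at -0.42, and in the Snrpn cluster the paternally expressed Ndn and Magel2 were at -0.26 and -0.15 beside Ube3a with equal intensities. These values are those of the brightest probe sets, and others could change the picture. Slc22a18 was at -0.87 in its brightest probe set and at 0.54 in its second. Kcnq1ot1 was at 2.60 in its dimmest probe set past the filter. That probe set passed only through the methionine-deficient pool and had to be higher, so no contrast is read from it.

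Counted by probe set, 55 of the 106 lay past the filter, 23 of them higher and 32 lower (median -0.04). At least 2-fold differences were seen in 6 of them, or 10.9%, beside 7.92% of all 22519 probe sets past the filter (4.5% higher and 3.41% lower). By class, 17.2% of the 29 probe sets of paternally expressed members past the filter and 4% of the 25 of maternally expressed members reached 2-fold, a difference that was not tested and in which probe sets of the same gene are not independent. The 2 higher ones read Igf2 and Kcnq1ot1, and the 4 lower ones read Snrpn, Rasgrf1, Grb10 and Ndn. In each of these genes except Igf2, another probe set past the filter was under 2-fold. The 2-fold probe sets of Igf2, Kcnq1ot1 (64.5 and 395), Rasgrf1 (295 and 76.8) and Grb10 (301 and 116) passed the filter only through their higher pool. A probe set that passes in this way has to differ, so these calls are descriptions. Igf2, Kcnq1ot1 and Rasgrf1 count toward the 17.2% and Grb10 toward the 4%. Of the 11 members read past the filter by 2 probe sets or more, 18.2% had all of them on 1 side, beside 39.6% of 4819 genes, though members such as Meg3 and Ndn had 8 each.

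Genes that set or keep imprints had values centred on 0. Of 28 listed regulators 17 lay past the filter, 8 higher and 9 lower, with a median of -4.4e-05 that lay between -0.05 and 0.02 under the other scalings. Trim28, the corepressor that is brought to imprinted control regions, had 3554 in the control and 4020 in the methionine-deficient pool (log2 difference 0.18, spread 0.18). Zfp445, a zinc finger protein that guides it there, had 2568 and 2669 (0.06, spread 0.18), while its partner Zfp57 was below the filter at 16.1 and 13.5. Ctcf, the insulator protein that binds the unmethylated control region between Igf2 and H19, had 1466 and 1645 (0.17, spread 0.18). The largest differences were those of Mbd3, a subunit of the NuRD repressor complex, at 85.4 and 485 (2.49, spread 0.77), Arid4a at 0.64, Dnmt3a, the de novo methyltransferase, at -0.38 and Atrx at 0.36. Mbd3 was the 1 regulator of 17 at least 2-fold different, beside 6.68% of all genes. It passed the filter only through the methionine-deficient pool, so it had to differ. In the dimmest level bin, where it lies, 23.5% of genes differed by 2-fold or more.

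Imprinted genes outside the member set were mostly lower by small amounts. Of 28 listed, 19 lay past the filter, 6 higher and 13 lower, with none at least 2-fold different, beside 6.68% of all genes. Mirg, among the higher ones, passed only through the methionine-deficient pool and had to be higher. Their median was -0.15, beside an estimated probe noise of 0.13. The largest differences beside those of Rian and Mirg were those of Tssc4 at 870 and 508 (-0.78, spread 0.31) and Klf14, a maternally expressed transcription factor, at 380 and 233 (-0.70, spread 0.60).

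Partners of IGF2 had values on both sides of 0. Of 19 listed genes of the IGF axis 14 lay past the filter, 7 higher and 7 lower, with a median of -0.02. Igf1r, the receptor through which IGF2 signals, had 940 in the control and 1185 in the methionine-deficient pool (log2 difference 0.33, spread 0.31). The largest differences were those of Pappa2, Igfbp6, Igfals and Igfbp3. Pappa2, a protease that cleaves IGF-binding proteins, had 163 and 336 (1.04, spread 0.60). The binding protein gene Igfbp6 had 1519 and 817 (-0.89, spread 0.31), Igfals 141 and 254 (0.84, spread 0.77), and Igfbp3 was at -0.48. Igfals passed the filter only through the methionine-deficient pool, so it had to be higher. Igf2bp1 (167 and 139) passed only through the control pool and had to be lower.

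Promoters of the members were richer in CpG, the dinucleotide that carries DNA methylation, than promoters at large. The 52 RefSeq promoters of 35 members, each from 250 bases before to 50 after a start site on GRCm38.p6, held a median of 15 CpGs, against 7 over all 32851 promoters. No promoter of H19, Cdkn1c, Rtl1, Peg10, Sgce or Impact was included. Member promoters on the chromosome of Impact were left out, whereas the 32851 kept that chromosome. The letters TGCCGC, the core motif that ZFP57 binds when it is methylated, were searched on both strands (GCGGCA on the other). They occurred in 13 of the 52, or 25%, and in 11.6% of all promoters. Among promoters with at least 10 CpGs the shares were 34.3% of 35 and 22.5% of 14281. The motif itself contains a CpG, so its share moves with CpG content. Of paternally expressed members' promoters 27.6% held it and of maternally expressed ones 26.3%.

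The promoters of the 6 members past the filter with this motif are shown, 5′ to 3′ on the strand of the gene, with the motif in capitals in either orientation. They are drawn from both parental classes.
Igf2 promoter, chr7:142661222-142661521, minus strand: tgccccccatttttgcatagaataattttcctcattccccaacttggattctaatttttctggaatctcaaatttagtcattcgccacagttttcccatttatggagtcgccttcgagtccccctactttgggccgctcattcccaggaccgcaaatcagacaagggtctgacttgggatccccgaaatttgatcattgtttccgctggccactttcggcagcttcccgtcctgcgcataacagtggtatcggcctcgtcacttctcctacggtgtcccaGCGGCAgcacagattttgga
Mest promoter, chr6:30737800-30738099, plus strand: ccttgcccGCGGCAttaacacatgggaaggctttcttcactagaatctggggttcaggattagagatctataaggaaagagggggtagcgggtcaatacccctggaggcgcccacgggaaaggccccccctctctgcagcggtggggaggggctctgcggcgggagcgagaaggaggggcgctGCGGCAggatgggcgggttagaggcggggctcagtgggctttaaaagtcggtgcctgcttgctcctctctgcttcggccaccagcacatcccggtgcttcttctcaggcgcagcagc
Plagl1 promoter, chr10:13090582-13090881, plus strand: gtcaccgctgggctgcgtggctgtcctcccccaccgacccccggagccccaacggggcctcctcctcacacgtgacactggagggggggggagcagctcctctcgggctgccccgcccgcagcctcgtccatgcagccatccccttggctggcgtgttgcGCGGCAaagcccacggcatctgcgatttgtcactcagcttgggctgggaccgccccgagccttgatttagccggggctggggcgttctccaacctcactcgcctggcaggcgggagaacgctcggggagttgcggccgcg
Meg3 promoter, chr12:109540746-109541045, plus strand: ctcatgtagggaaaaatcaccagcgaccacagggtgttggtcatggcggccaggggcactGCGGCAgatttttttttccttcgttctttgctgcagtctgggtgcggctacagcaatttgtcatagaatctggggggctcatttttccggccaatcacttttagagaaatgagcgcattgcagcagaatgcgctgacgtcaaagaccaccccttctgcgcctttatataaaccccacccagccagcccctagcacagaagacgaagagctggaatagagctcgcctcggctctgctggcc
Grb10 promoter, chr11:12037371-12037670, minus strand: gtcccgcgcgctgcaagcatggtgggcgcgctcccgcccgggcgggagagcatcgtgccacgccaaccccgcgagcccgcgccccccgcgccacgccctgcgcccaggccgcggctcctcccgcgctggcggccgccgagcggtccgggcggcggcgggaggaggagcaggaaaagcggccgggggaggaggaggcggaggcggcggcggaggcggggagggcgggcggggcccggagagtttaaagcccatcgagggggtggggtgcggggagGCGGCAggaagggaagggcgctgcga
Copg2 promoter, chr6:30896745-30897044, minus strand: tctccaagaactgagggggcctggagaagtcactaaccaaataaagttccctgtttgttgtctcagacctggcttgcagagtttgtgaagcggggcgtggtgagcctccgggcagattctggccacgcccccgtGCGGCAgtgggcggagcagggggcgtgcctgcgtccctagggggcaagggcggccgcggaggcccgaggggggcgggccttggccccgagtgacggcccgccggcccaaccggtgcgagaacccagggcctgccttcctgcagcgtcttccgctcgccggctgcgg
For Igf2, Mest, Meg3 and Grb10 this is 1 of several annotated starts. Of these 6 members 4 were higher and 2 lower in the methionine-deficient pool, their median being 0.12, and of the 14 others past the filter whose promoters lacked the motif, 2 were higher and 12 lower, their median being -0.24. This split was made after values were seen. Igf2, among the 4 higher, passed the filter only through the methionine-deficient pool and had to be higher. Cdkn1c, Sgce and Impact, past the filter at 0.16, 0.20 and -0.10, had no promoter included and are in neither group. The split is therefore a description. Igf2 alone among the 6 differed by more than its probe-set spread. A match of letters is no evidence of binding.

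Marker genes of the cell types in the tissue were read in the same pools. The label of pancreas fitted its acinar and islet markers, all 9 read of each list lying past the filter, with Prss2, Cel and Cela1 the brightest acinar genes at 242235, 237669 and 188258 in the control pool. Among islet genes Ins2 had 93733 and 93461, Iapp 52958 and 54436 and Gcg 21772 and 28591. The lists' medians were -0.04 for acinar and -0.00 for islet genes. Fibroblast and stellate genes, in which Igf2, Meg3 and Dlk1 can be active, had a summed intensity of 16444 in the control and 17689 in the methionine-deficient pool over 10 of 10 genes (median 0.16), with Pdgfra at -1.08. Endothelial genes summed to 4205 and 4715 over 7 of 9 (median 0.25). Nerve and Schwann cell genes summed to 910 and 1278 over 3 of 9 (median 0.24), with Ngfr at 1.76. Duct genes summed to 22187 and 20317 over 5 of 8 (median 0.19), and adipocyte genes to 27980 and 25484 over 5 of 8 (median -0.20), with Cidec at -1.59. B cell and plasma cell genes summed to 11093 and 6233 over 7 of 8 (median -0.42), with Ighm at -1.22 and Cd22 at 2.15, and macrophage genes to 9092 and 10534 over 7 of 8 (median -0.01), with C1qa at 1181 and 2381. Ngfr (107 and 364) and Cd22 (81.3 and 365) passed the filter only through the methionine-deficient pool, so they had to differ. The part of cell composition in the members' differences was not tested, and in pooled tissue fewer cells of a type and less RNA per cell cannot be told apart.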

How the data were processed

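Per the labels, total RNA was isolated with Trizol and labelled from its 3′ end as biotin cRNA for Affymetrix arrays. The authors deposited 1 linear intensity per probe set and array. The program, its background correction and any scaling behind it were not given in the sources used here. No detection calls were used. Gene names came from the platform annotation, and 34741 probe sets were updated through gene identifiers to symbols of GRCm38.p6. Of 45101 probe sets 64 were array controls, 34945 had 1 symbol, 932 had several and 9160 had none. Several-gene probe sets were kept for members and marked, but stayed out of gene values and medians.

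The log2 scale used a pseudocount of 1, with no further scaling. A difference of 2-fold past the level filter was counted, without a test. Differences per gene and the spread were tested on simulated data. Probe noise of a list median is the root mean square spread over the square root of the number of genes, times a constant for medians. Members, parental classes and lists were chosen with earlier results of these data known. Every member was to be named, and of other lists those at least 2-fold different and up to 4 with the largest difference, with the 3 brightest acinar and islet genes; further regulators and Igf1r were named after their values were seen. The number of arrays limits the precision. Alternatives were 3 scalings, pseudocount 16, other filters and sizes, other uses of probe sets and other parental classes; reading members through several-gene probe sets was added after seeing the data. Computations used Python 3.11.15, numpy 2.4.6, pandas 2.3.3 and statsmodels 0.14.6.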

Additional observations from a re-analysis of the deposited data

How the results depend on the processing

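Of 85 alternative values of the counts and medians, 72 stayed within 1.5 times the count or within the probe noise of the median. The count of members at least 2-fold different, 1 of 23, was 7 of 36 with no level filter (23.8% of all genes), 2 of 18 without probe sets that can bind several transcripts (Igf2 and Rasgrf1; 7.17% of all genes) and 2 of 23 at a 1.5-fold size (19.4%). It was 0 with the 75th percentile filter (1.30%) or with a gene's probe sets averaged (8.53%), both of which leave Igf2 below the filter. Rasgrf1, as read in the 2 of 18, passed the filter only through the control pool. The count of member probe sets, 6 of 55, was 30 of 106 (28.3%) with no filter, 1 of 22 with the 75th percentile filter and 14 at 1.5-fold. Below the filter, 47.1% of member probe sets and 56.2% of all probe sets differed by at least 2-fold. Shares over all probe sets were not computed for the 75th percentile filter and the 1.5-fold size, so those counts are descriptions. The median of maternally expressed members was 0.047 with no filter and 0.012 when a gene's probe sets were averaged, which also put that of all members at 0.012. By means in place of medians the paternally expressed members stood at 0.12 and the contrast of the classes at 0.28. The cause of these shifts was not tested beyond what the filters remove. Under the other scalings, filters and rules for probe sets, 10 of 182 values of single members had the other sign; read through another single probe set past the filter, 13 of 28 did. Igf2 has no other probe set past the filter and kept its sign, lying between 2.34 and 2.60 wherever it passed the filter. With a filter applied, Igf2 passed only through the methionine-deficient pool. Its sign there was therefore fixed in advance and is no measure of stability. No paired analysis was possible because each group has 1 array, and for the same reason no replicate could be left out. Which dim intensities stand above background is not known.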

Other observations

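The stretch of chromosome 7 that holds Igf2, H19 and the Kcnq1ot1 cluster contains further genes that were not described above. Nap1l4, a histone chaperone gene, had 1303 in the control and 1098 in the methionine-deficient pool (log2 difference -0.25, spread 0.31), and Osbpl5, a sterol-binding protein gene, had 297 and 266 (-0.16, spread 0.60). Tspan32, a tetraspanin gene of blood cells, had 599 and 654 (0.13, spread 0.46). Th, which encodes tyrosine hydroxylase and lies beside Ins2, was below the level filter at 243 and 62.6. The antisense transcript Igf2os, read by its own probe set, had 141 and 66.2, also below the filter. These genes came from the lists and were singled out by position after their values were seen.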
